A study of Rattus norvegicus with 4 samples.

Results

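The genomic regions described here are 366 open reading frames (ORFs) that the authors' ORF annotation classes as unannotated and places on genes of a noncoding type. They were chosen by class and gene type alone, with no use of counts, out of 18847 ORFs listed for the series. Long intergenic noncoding RNA (lincRNA) genes carried 265 of them, genes of the type processed transcript 94, small nucleolar RNA (snoRNA) genes 4 and antisense genes 3. The 366 ORFs lay on 258 genes, 180 of which held 1 such ORF and 78 of which held 2 or more, with 4 at most. For scale, the same annotation lists 15034 annotated ORFs, 1355 upstream ORFs and 811 other unannotated ORFs.

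A transcript is called noncoding when no protein has been annotated on it, yet ribosomes can engage short or long ORFs on such transcripts. In heart and skeletal muscle, several small membrane proteins that regulate the calcium pump of the sarcoplasmic reticulum were found on transcripts that had been taken for noncoding. Ribosome profiling sequences the RNA fragments that ribosomes protect from nuclease, and a translated ORF shows fragments whose ribosomal P-site, the position of the peptidyl-tRNA, falls mostly in 1 of 3 reading frames.

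The cells were neonatal rat ventricular cardiomyocytes, prepared from Sprague-Dawley rats at postnatal day 2 and freed of other cells only by an attachment step. The PE group received phenylephrine, an α1-adrenergic agonist that makes cultured cardiomyocytes enlarge, at 20 µM for 24 h. The control group is untreated by its titles and treatment tags, although the treatment protocol text, which is the same for all 4 libraries, names PE. Each group had 2 libraries, and the 4 libraries held between 11446574 and 13827599 counts on the listed ORFs. The labels do not say whether the libraries of a group came from separate cultures, so the spread that the p-values measure may be technical. RNA-seq was not analysed here, so a change in footprints combines RNA level and translation. The summed level of the 8 fibroblast markers, all 8 listed, was 34404 to 34671 CPM (counts scaled to the library size and TMM factors) in control and 20814 to 21050 in PE, and that of the 9 cardiomyocyte markers listed of 11 was 86579 to 86592 in control and 105464 to 106239 in PE. Of the 9, 4 were called higher and 5 lower, and of the 8 fibroblast markers 1 higher and 5 lower. Endothelial markers summed to 221 to 230 CPM in control and 129 to 136 in PE, smooth muscle markers to 2111 to 2145 and 1830 to 1844, leukocyte markers to 475 to 499 and 336 to 340, and no ORF of the 3 erythroid markers was listed. In such bulk samples fewer cells of a type and less RNA per cell cannot be told apart, and the part of these shifts in the results below was not tested.

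The gene type did not always match a second annotation. RefSeq (GRCr8) matched 31 of the 258 genes by symbol or synonym and lists 23 of these 31 as protein coding and 8 as long noncoding RNA. The 23 genes held 48 of the ORFs and included Bves, Trrap, Top2b, Itgb5, Smg1 and Taf1, genes of well-known proteins that appear here because the annotation used by the authors types them as processed transcripts. The clone-named gene AABR07064873.1 is a RefSeq synonym of Syne2, which encodes a giant protein of the nuclear envelope. Of the 258 genes, 183 went by a clone name in the authors' annotation, AABR07064873.1 among them.

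Promoters are shown for 3 of these RefSeq-coding genes, whose ORFs passed the test in opposite directions: Smg1 and St8sia2 were lower in PE, and Itgb5 was higher. The 250 bases before the RefSeq start were read 5′ to 3′ on the gene's strand, on GRCr8, at chr1:181977895-181978144 for Smg1, chr1:137247754-137248003 for St8sia2 and chr11:80449374-80449623 for Itgb5, all on the minus strand. Capitals mark motif matches on either strand.
Smg1: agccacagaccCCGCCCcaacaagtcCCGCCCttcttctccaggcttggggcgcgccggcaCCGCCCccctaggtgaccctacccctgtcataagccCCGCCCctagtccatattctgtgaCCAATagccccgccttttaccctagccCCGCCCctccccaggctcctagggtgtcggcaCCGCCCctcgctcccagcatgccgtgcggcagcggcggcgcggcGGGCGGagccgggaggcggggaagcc
St8sia2: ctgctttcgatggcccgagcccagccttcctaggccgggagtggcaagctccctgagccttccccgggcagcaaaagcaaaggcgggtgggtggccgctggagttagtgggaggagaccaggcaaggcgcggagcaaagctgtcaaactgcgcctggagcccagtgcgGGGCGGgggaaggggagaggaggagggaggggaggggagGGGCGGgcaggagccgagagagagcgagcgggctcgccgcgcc
Itgb5: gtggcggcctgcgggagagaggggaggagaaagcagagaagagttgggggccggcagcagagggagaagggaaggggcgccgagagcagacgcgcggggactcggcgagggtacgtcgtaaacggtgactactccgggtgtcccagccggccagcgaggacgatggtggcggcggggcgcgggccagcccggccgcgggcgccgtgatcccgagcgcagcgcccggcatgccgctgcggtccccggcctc
Motifs searched were the GC box GGGCGG, the CCAAT box, the TATA box TATAAA, the E-box CANNTG, the MCAT element GGAATG and the CArG box. Matches to different motifs can overlap. Smg1 held 7 GC boxes and 1 CCAAT box, St8sia2 held 2 GC boxes and Itgb5 held no match, and no matches overlapped. Over 33469 RefSeq promoter windows of that length, 30.5% held a GC box, 34.0% a CCAAT box, 12.9% TATAAA, 65.5% an E-box, 12.1% an MCAT element and 1.497% a CArG box. GC content was 71.6%, 70.4% and 74.4% for Smg1, St8sia2 and Itgb5.

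The ORFs ranged from 30 to 15447 nt, with a median of 364.5 nt, and 155 of the 366 encoded at most 100 residues. Footprints on them kept a reading frame. Of 217039 P-sites, which the authors pooled over libraries, 83.7% fell in frame 0 (95% Wilson interval 83.6 to 83.9, counting error only), next to 84.8% for annotated ORFs and 78.3% for upstream ORFs. Of the 366 ORFs, 298 had at least 75% of their P-sites in frame 0 and 6 had under 50%. The P-site values describe the deposited list itself. Although the caller that made the list is unnamed, its deposited p-value for each ORF scores frame 0 over the other frames. A high frame share can therefore follow from how the ORFs were chosen. For that reason the share cannot serve as separate evidence that these ORFs are translated.

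**Figure D1:**
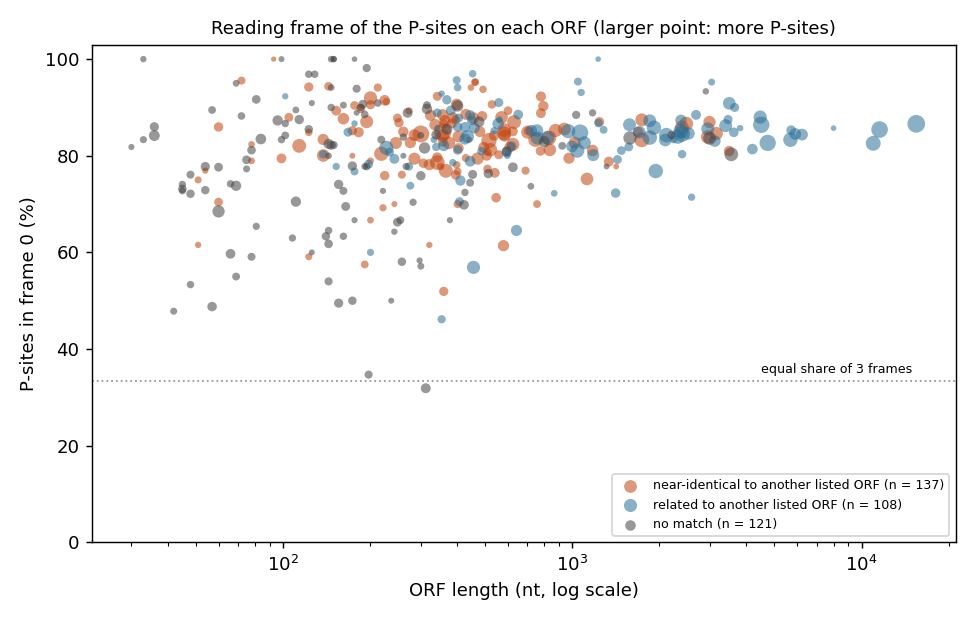
Share of P-sites in frame 0 (percent) against ORF length (nt, log scale) for the 366 ORFs, coloured by likeness of the encoded sequence to another listed ORF, with point size growing with the number of P-sites. Most points lie near 83.7%, and the 6 ORFs with under 50% are all shorter than the median length of 364.5 nt.

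The encoded sequences fell into 3 groups by likeness to the other listed ORFs, found with blastp. A group of 137 was near-identical (at least 90% identity over at least 50% of the residues), 108 were related by a weaker match and 121 had no match. Near-identical ORFs were mostly on lincRNA genes, 125 of 137, and related ORFs mostly on processed-transcript genes, 59 of 108. Of the 137 near-identical ORFs, 123 had an annotated ORF as the closest sequence, 113 lay on the same chromosome as it, 24 within 100 kb of it, and 33 matched it at 100% identity over their whole length. The frame 0 share was 83.8% in near-identical ORFs, 84.3% in related ORFs and 78.9% (78.2 to 79.6) in ORFs with no match. Of the 121 with no match, 94 encoded at most 100 residues, and 16 encoded under 20. In all, 19 ORFs encoded under 20 residues, so a match at that length was rare but possible.

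Counts were assigned to fewer of these ORFs than P-sites were. In all 4 libraries together 185 of the 366 ORFs (50.5%) had 0 counts, against 12.0% of annotated ORFs and 58.2% of other unannotated ORFs. Among near-identical ORFs 114 of 137 had 0 counts (83.2%), among related ORFs 41 of 108 and among those with no match 30 of 121. ORFs whose span overlapped that of another listed ORF on the same strand had 0 counts in 92 of 137 cases, and those without overlap in 93 of 229. These 185 ORFs held 51.3% of the 366 ORFs' P-sites, so a count of 0 in this table was not an absence of footprints.

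Near-identical copies of coding genes held many of these P-sites. The ORFs with the most P-sites and 0 counts were 2 overlapping ORFs of LOC100912578 (Rnor_6.0 chromosome 3, 74227808 to 74228971 for the longer, minus strand). The ORF of 357 nt held 13771 P-sites, 84.9% of them in frame 0, and encoded a sequence 100% identical to part of Hspa9, the mitochondrial Hsp70 chaperone. The ORF of 300 nt held 11030 P-sites and was 98.9% identical to Hspa9. In all, 31 ORFs with 0 counts had at least 1000 P-sites. Among them, named after their values were seen, were LOC103690095 with 4439 P-sites (100% identical to Tfg, a protein of secretory export), AABR07044962.1 with 3391 (97.4% identical to the nuclear pore protein Ranbp2) and LOC100910750 (831 nt) with 3146 (100% identical to the RNA helicase Dhx15). Cd93 and Grm4, which RefSeq lists as coding, also had 0 counts, with 2525 P-sites on the 1944 nt ORF of Cd93 and 2640 on the 2115 nt ORF of Grm4. Each of these ORFs overlaps another listed ORF of its own gene. The counting program is not given in the sources used here, and how it treated reads that fit several places was not tested.

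**Figure D2:**
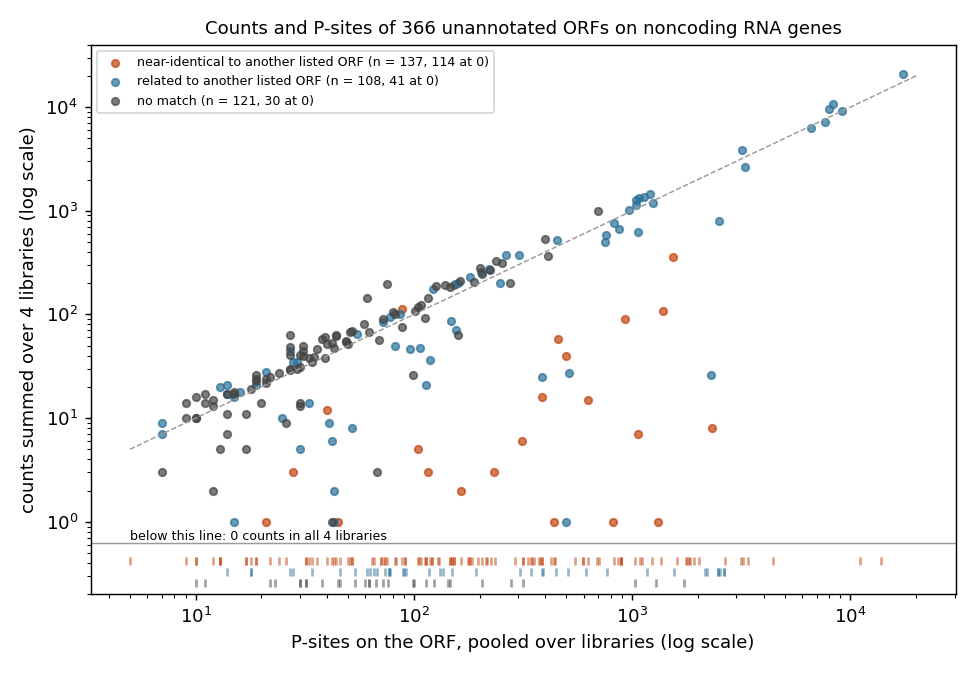
Counts summed over the 4 libraries against P-sites pooled over libraries, both on log scales, for the 366 ORFs, with a dashed line at equality and ticks under the grey line for ORFs with 0 counts. ORFs with no match (grey) mostly lie near the line, while 114 of the 137 near-identical ORFs (orange) sit at 0.

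Footprints on the ORFs with counts were concentrated on a few. The 8 highest ORFs took 73.2% of the summed CPM of the 366 and the highest took 21.5%. Related ORFs accounted for 90.6% of the sum, ORFs with no match for 8.30% and near-identical ORFs for 1.098%. Per kilobase of ORF, the 100 ORFs that could be tested ranked at a median percentile of 38.9 among tested annotated ORFs, and 35 of them lay above the annotated median.

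The question of the comparison was which of these ORFs changed their footprint level after PE. PE was followed by lower footprints on the processed-transcript ORFs with the highest counts: AABR07001382.1, Bves, Trrap, all 3 tested ORFs of the collagen VI-like gene AABR07068316.1, and others. Itgb5 was the exception among the 8 highest ORFs and was higher. Of 51 tested ORFs with no match, 5 were called higher and 7 lower, and of 42 related ORFs 5 higher and 19 lower. Filtering on low counts left 100 of the 366 ORFs, on 85 genes, and the other 266 comprised the 185 at 0 and 81 with mean counts of up to 9.75. The quasi-likelihood test of edgeR, with p-values adjusted by Benjamini-Hochberg over all 12609 tested ORFs and a threshold of 0.05, called 39 of the 100 (39%), 12 higher and 27 lower in PE. Over all tested ORFs 42.7% passed, 21.4% higher and 21.3% lower. Without regard to mean count, the share called was thus near that of all ORFs, with 12% higher and 27% lower. The median log2 fold change was -0.16 for the 100 ORFs and 0.00038 for all tested ORFs. Changes of at least 2-fold among called ORFs numbered 4 higher and 16 lower of the 100. Over all 12609 tested ORFs they numbered 441 higher and 566 lower.

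The 2 control and 2 PE values did not overlap in 67 of the 100 ORFs, against 68.6% of all tested ORFs. The ORFs had a median mean count of 33.25, where all tested ORFs had 213.75. Within mean counts under 50, 17 of 59 (28.8%) were called against 20.2% of all ORFs. Within 50 to 200, 9 of 24 (37.5%) were called against 32.4%, and at 200 or more, 13 of 17 (76.5%) against 57.9%. The share was thus above that of all ORFs at each level of counts, a difference that was not tested. By gene type, 24 of 40 processed-transcript ORFs were called, 5 higher and 19 lower, and 15 of 57 lincRNA ORFs, 7 higher and 8 lower. None of the 2 tested snoRNA ORFs and the 1 tested antisense ORF passed. In the authors' deposited table, 116 of the 366 ORFs had an adjusted p, and 21 passed 0.05, 4 higher and 17 lower, against 25.8% of all ORFs in that table. All 21 of the authors' deposited table were among the 39 called by edgeR.

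Calls depended on the method and on single libraries. Over all 12609 tested ORFs, where edgeR called 5386, DESeq2 called 3592 (1793 higher) and a test against a 1.5-fold change called 1009 (459 higher). Of the 39, DESeq2 called 23, 4 higher and 19 lower, and the test against a 1.5-fold change called 12, all lower. Without PE replicate 2 the higher calls fell to 6. None of the 39 calls changed its sign in any of these.

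**Figure D3:**
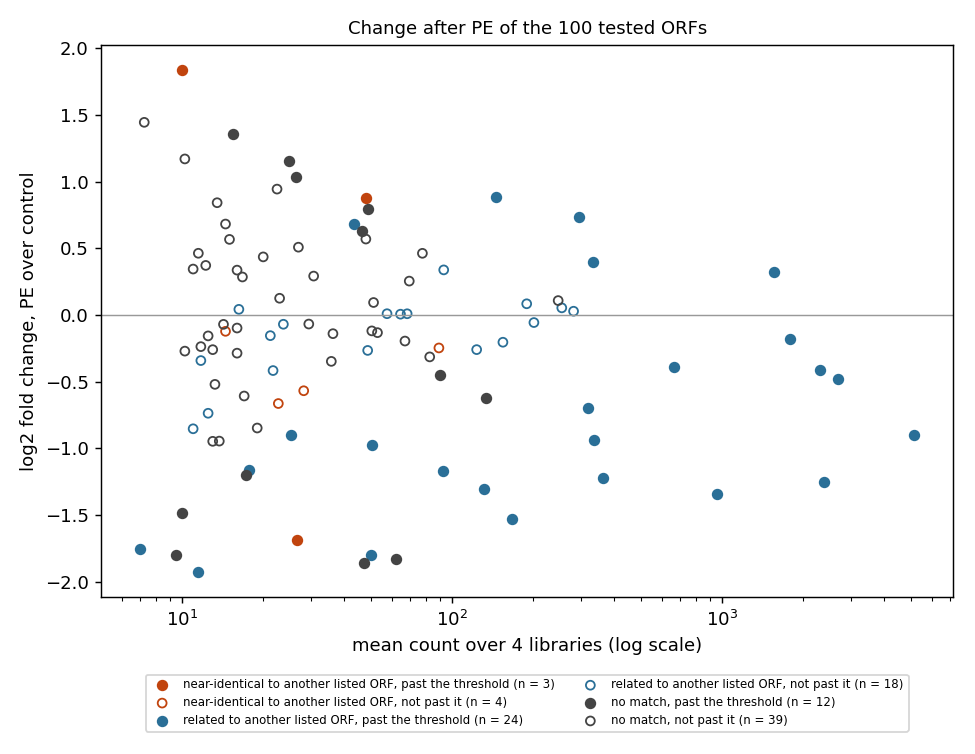
Log2 fold change (PE over control) against mean count over the 4 libraries (log scale) for the 100 tested ORFs, filled where the edgeR test passed the threshold and open where it did not. Above a mean count of 300, most filled points are related ORFs (blue) below 0, and below a mean count of 50 the points spread on both sides of 0.

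The most abundant ORF was the 15447 nt ORF of AABR07001382.1 (chromosome 1, 41609125 to 41816684, minus strand). Its closest listed sequence was Macf1, a giant linker of actin and microtubules with spectrin repeats, at 21.9% identity over 15.1% of its 5149 residues. It had 527 and 538 CPM in control and 282 and 289 CPM in PE, so each PE value lay well below both controls. The log2 fold change was -0.90 ± 0.027 (SE), with edgeR's adjusted p = 1.7e-23. The 3 tested ORFs of AABR07064873.1, the Syne2 synonym, had far lower counts and were lower in PE too. The encoded sequences of 2 of them were like Macf1 and Dst, at 23.1% and 22.9% identity over 27.0% and 39.4% of their length, and the 1032 nt ORF had no match. Its ORF of 4194 nt had 66 and 71 counts in control and 40 and 26 in PE, with a log2 fold change of -0.97 ± 0.26 and edgeR's adjusted p = 0.0029. The ORF of 2679 nt had 22, 28, 10 and 11 counts in the same order (-1.16 ± 0.43) and the ORF of 1032 nt had 21, 28, 6 and 14 (-1.20 ± 0.45), with edgeR's adjusted p = 0.027 and 0.030.
Both of these calls rest on few reads, and DESeq2 made neither (adjusted p = 0.17 and 0.18). The 2679 nt ORF lost its call without any 1 of the 4 libraries (edgeR's adjusted p = 0.070 to 0.12). The 1032 nt ORF lost it without each of control replicate 1 (edgeR's adjusted p = 0.055), control replicate 2 (adjusted p = 0.13) and PE replicate 1 (log2 fold change -0.74, adjusted p = 0.28). The 4194 nt ORF lost it without PE replicate 2 (-0.68, edgeR's adjusted p = 0.077).

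Bves, also called Popdc1, encodes a Popeye-domain membrane protein that binds cyclic AMP and is abundant in striated muscle. Its ORF of 355 residues (chromosome 20, 50439898 to 50474281, plus strand) was most like Popdc3, a member of the same family 17530 nt away, at 34.4% identity. Its level was 256 and 244 CPM in control and 181 and 177 CPM in PE, with no overlap. The log2 fold change was -0.48 ± 0.036, and edgeR's adjusted p was 5.5e-13. Per length it stood at 201 CPM per kilobase, the highest level among the 8 ORFs of highest CPM.

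Long ORFs of Trrap, Smg1 and Top2b were lower in PE by less than that of AABR07001382.1. Trrap, the scaffold of histone acetyltransferase complexes (11538 nt, chromosome 12), had 207 and 213 CPM in control and 159 and 156 in PE (log2 fold change -0.42 ± 0.038, edgeR's adjusted p = 5.5e-11). Smg1, a kinase of nonsense-mediated mRNA decay (10968 nt), had 60.5 and 59.5 CPM in control and 43.6 and 48.0 in PE (-0.39 ± 0.069, edgeR's adjusted p = 2.3e-05). Top2b, DNA topoisomerase II beta (4737 nt), had 153 and 149 CPM in control and 133 and 134 in PE (-0.18 ± 0.042, edgeR's adjusted p = 0.00085). In each of these 3 the PE values lay below both controls. Taf1, the largest subunit of the general transcription factor TFIID (5676 nt), had 15.2 and 17.5 CPM in control and 16.6 and 14.9 in PE, which overlap (-0.06 ± 0.12, edgeR's adjusted p = 0.75), at 0.323 counts per P-site. Log2 fold changes fell with ORF length over all tested ORFs, from 0.18 at 60 nt to -0.090 at 3000 nt and -0.30 at 10000 nt. With that trend removed, Smg1 (-0.075, edgeR's adjusted p = 0.42) and Top2b (-0.0092, adjusted p = 0.89) no longer passed. Trrap shrank to -0.093 and passed narrowly (edgeR's adjusted p = 0.0496), AABR07001382.1 shrank to -0.53 (adjusted p = 6.7e-17), and Bves stood at -0.52.

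Itgb5, the integrin β5 subunit, which pairs with αv to bind vitronectin (2397 nt, chromosome 11, 70057733 to 70172117), rose. It had 114 and 109 CPM in control and 138 and 140 CPM in PE. The log2 fold change was 0.32 ± 0.046, with edgeR's adjusted p = 5.8e-07. Its closest listed ORF, the integrin β3 subunit Itgb3 at 52.0% identity, rose by 0.66 ± 0.092. Itgb5 was the single increase among the 11 called of 21 tested ORFs on genes that RefSeq lists as coding, with 10 lower, where 42.7% of all tested ORFs were called, 21.4% higher and 21.3% lower. St8sia2, a sialyltransferase that builds polysialic acid on the neural cell adhesion molecule, had 36.1 and 34.2 CPM in control and 17.0 and 19.6 in PE. It fell by 0.94 ± 0.10 on the log2 scale (edgeR's adjusted p = 2.5e-09), and its closest listed ORF, the related enzyme St8sia4, fell by 1.07 ± 0.17.

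The largest decreases among the 8 ORFs of highest level were on AABR07068316.1. This gene (chromosome 9, minus strand) carried 3 ORFs that do not overlap, of 4500, 2376 and 759 nt. The first 2 were most like Col6a6, a chain of the beaded-filament collagen VI, at 28.1% and 34.4% identity, and the last was most like Col28a1. The 4500 nt ORF had 256 and 275 CPM in control and 111 and 112 in PE (log2 fold change -1.25 ± 0.041, edgeR's adjusted p = 1.9e-22). The 2376 nt ORF had 112 and 107 CPM in control and 44.3 and 41.6 in PE (-1.34 ± 0.061), and the 759 nt ORF had 38.9 and 41.7 in control and 15.95 and 18.5 in PE (-1.23 ± 0.099). All 3 therefore fell by 2.34 to 2.54-fold. Col6a6 itself, on chromosome 8, changed by -1.26 ± 0.088.

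AABR07044388.2 (chromosome 20, 4476866 to 4486493, plus strand) encoded 1163 residues most like tenascin C (Tnc), a matrix glycoprotein, at 32.5% identity over 99.3% of its length. It had 20.3 and 19.1 CPM in control and 6.43 and 7.14 in PE, a log2 fold change of -1.53 ± 0.14 with edgeR's adjusted p = 7.7e-11. Tnc changed by -0.74 ± 0.028. The annotated ORF LOC103689965 overlaps its span on the opposite strand and changed by -0.88 ± 0.18, from 12.7 to 6.89 CPM. No other ORF among the 16 with the largest changes had an annotated ORF within 10 kb. AABR07072602.1 (459 nt, chromosome 18), named after its values were seen, was 86.4% identical to fibrillin-1 (Fbn1), a microfibril protein. It had 9.90 and 10.5 CPM in control and 4.18 and 4.87 in PE (-1.17 ± 0.19), while Fbn1 rose by 0.32 ± 0.015. AABR07070310.1, most like the matrix protein Adamtsl4 and likewise named after its values were seen, had 120 and 156 counts in control and 91 and 127 in PE, and did not pass (-0.26 ± 0.16, edgeR's adjusted p = 0.21). The summed fibroblast markers, given above, were lower in PE.

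Other large decreases were on ORFs with fewer counts. AABR07052523.2 (lincRNA, 423 nt, chromosome 3), whose encoded sequence matched no other, had 6.02 and 5.70 CPM in control and 1.75 and 1.46 in PE, a log2 fold change of -1.86 ± 0.28 (edgeR's adjusted p = 1.3e-06). The 96 nt ORF of AABR07025277.1 (chromosome 16, 31349204 to 31349302), also with no match, had 7.66 and 7.63 CPM in control and 2.51 and 1.79 in PE (-1.83 ± 0.24, edgeR's adjusted p = 1.9e-07). It encodes 32 residues, and 87.3% of its P-sites were in frame 0. AABR07017145.1 had 6.71 and 5.70 CPM in control and 1.17 and 2.35 in PE (-1.80 ± 0.29). It is 79.8% identical to Cadps2, a priming factor of dense-core vesicles. AABR07039210.1 (X chromosome, 1037 residues) was most like Nhs, a regulator of actin at cell edges, and had 15.7 and 14.1 CPM in control and 5.68 and 6.33 in PE (-1.303 ± 0.16). AABR07019085.1, 95.1% identical to the ubiquitin ligase Mycbp2, had 2.58 and 3.78 CPM in control and 0.919 and 1.06 in PE (-1.69 ± 0.38). Its counts were only 0.077 per P-site, so most of its P-sites had no matching count. Mycbp2 changed by -0.50 ± 0.054. AABR07019086.1, named after its values were seen, lay on the same chromosome and strand and was also near-identical to Mycbp2. It had 8.18 and 7.41 CPM in control and 5.43 and 7.63 in PE, which overlap, and did not pass (-0.25 ± 0.19, edgeR's adjusted p = 0.32).

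Among called ORFs with a mean count of at least 20, the 8 largest increases had log2 fold changes of 0.63 to 1.15. Larger increases were called at lower counts, and these 2 were named after their values were seen. AABR07043772.1 had 2 and 7 counts in control and 11 and 20 in PE (1.84 ± 0.60, edgeR's adjusted p = 0.013), at 0.081 counts per P-site and 100% identity to Nfat5. AC126572.7 had 0.688 and 0.713 CPM in control and 1.67 and 1.95 in PE (1.36 ± 0.45, edgeR's adjusted p = 0.015). The 2 overlapping ORFs of AABR07035437.1 (chromosome 12) were most like Sdk2, a cell adhesion protein of the immunoglobulin superfamily, at 58.0% and 60.3% identity. Its 4464 nt ORF had 18.0 and 17.8 CPM in control and 27.4 and 32.2 in PE (0.73 ± 0.11, edgeR's adjusted p = 9.1e-07), and its 2523 nt ORF had 8.35 and 8.27 in control and 14.5 and 16.1 in PE (0.88 ± 0.14). Sdk2 itself changed by -0.22 ± 0.097 and did not pass (edgeR's adjusted p = 0.071). The 540 nt ORF of AABR07035338.1, 93.3% identical to the Mediator kinase Cdk19, had 2.67 and 2.78 CPM in control and 5.26 and 4.79 in PE (0.88 ± 0.25), and the 618 nt ORF of that gene had 3.01 and 2.42 in control and 4.26 and 4.38 in PE (0.68 ± 0.27). Cdk19 changed by 0.17 ± 0.19.

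Some ORFs with no match also rose. LOC102551356, a long noncoding RNA in RefSeq, had 18 and 14 counts on its 165 nt ORF in control and 25 and 43 in PE, a log2 fold change of 1.15 ± 0.38 (edgeR's adjusted p = 0.015). The 249 nt ORF of AABR07044375.2 had 17 and 19 counts in control and 33 and 37 in PE (1.03 ± 0.35, edgeR's adjusted p = 0.018). AABR07025386.1, with 63 residues, had 24 and 50 counts in control and 57 and 64 in PE (0.79 ± 0.27, edgeR's adjusted p = 0.016), and AABR07006724.1, with 198 residues, had 32, 43, 54 and 56 counts (0.63 ± 0.26, edgeR's adjusted p = 0.047).
With DESeq2, none of these 4 passed, nor the AABR07035338.1 ORFs, with adjusted p-values of 0.067 to 0.23. With library totals alone in place of TMM, edgeR's adjusted p was 0.065 for AABR07006724.1 and 0.054 for the 618 nt ORF, and with the length trend removed 0.098 and 0.082. AABR07006724.1 lost its call without any 1 library (edgeR's adjusted p = 0.086 to 0.16). The 618 nt ORF of AABR07035338.1 lost it without control replicate 2 (edgeR's adjusted p = 0.23), PE replicate 1 (0.70, 0.097) or PE replicate 2 (0.66, 0.13), given as log2 fold change and adjusted p. AABR07025386.1 lost it without control replicate 1 (0.48, edgeR's adjusted p = 0.20) and also without PE replicate 2 (adjusted p = 0.073). AABR07044375.2 lost it when control replicate 2 was left out (edgeR's adjusted p = 0.080) and when PE replicate 2 was (adjusted p = 0.077). LOC102551356 did so too, with a log2 fold change of 0.85 without the first (edgeR's adjusted p = 0.13) and 0.73 without the second (adjusted p = 0.26).

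**Figure D4:**
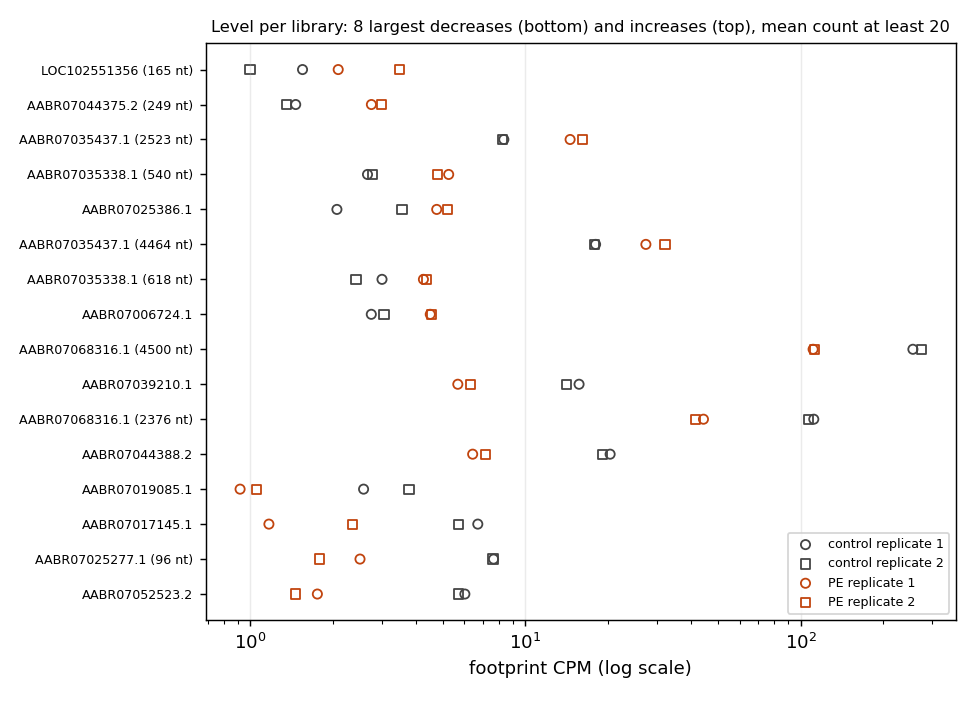
Footprint CPM in each of the 4 libraries (log scale) for the 8 largest decreases and 8 largest increases among called ORFs with a mean count of at least 20 and groups that do not overlap, a condition of the choice. The largest log2 fold change between control (grey) and PE (orange) is that of AABR07052523.2, at -1.86.

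Changes could be compared within genes that carry several ORFs. On 12 genes with 2 or 3 tested ORFs, 27 ORFs in all, the ORFs had the same sign on 8 genes, which was not tested. The median spread of log2 fold change within a gene was 0.29. No gene had calls in opposite directions. Only AABR07035338.1, AABR07035437.1, AABR07064873.1 and AABR07068316.1 had 2 or more called ORFs, so opposite calls could not occur on the others. The spans of some of the 27 ORFs overlap, introns included, so they may share reads, which was not tested. The 3 ORFs of AABR07037943.1 (X chromosome), like the phosphorylase kinase subunit Phka1 at 60.5% to 76.9% identity, had log2 fold changes of -0.85 ± 0.53, -0.42 ± 0.38 and -0.34 ± 0.50, and none passed.

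Among ORFs with no match, the highest level per length was on Snx3, a sorting nexin gene that RefSeq lists as coding. Its ORF of 60 nt (chromosome 20, 47262723 to 47262785, plus strand) starts at position 507 of the transcript and encodes 20 residues. It had 223 and 267 counts in control and 232 and 268 in PE, or 19.2, 19.03, 19.4 and 21.8 CPM. These values hardly differ, and the log2 fold change of 0.11 ± 0.11 did not pass (edgeR's adjusted p = 0.48). At 331 CPM per kilobase it stood above Bves, with frame 0 P-sites on 100% of its codons and 68.5% of all its P-sites in frame 0. The next were the 84 nt ORF of LOC100909912, with 59, 76, 84 and 92 counts at 74.3 CPM per kilobase (0.46 ± 0.20, edgeR's adjusted p = 0.057), and the 48 nt ORF of the snoRNA gene RF00157, with 41, 41, 44 and 17 (-0.35 ± 0.34). These 3 ORFs were chosen after their values were seen. The 6 tested ORFs on genes that RefSeq lists as long noncoding RNA, of which LOC100909912 and LOC102551356 gave 2 each, had log2 fold changes of 0.29 to 1.15. Only 1 of the 6 passed, against 42.7% of all tested ORFs, and 6312 of the 12609 had a positive value.

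Small membrane proteins were looked for by a hydrophobic stretch, a window of 19 residues with mean hydropathy of at least 1.6. Among ORFs of 19 to 100 residues, 14 of 138 held one (10.1%), against 25.7% of annotated ORFs of that size and 3.60% of upstream ORFs. The share was 15.6% in near-identical ORFs (7 of 45), 15.4% in related ORFs (2 of 13) and 6.25% in those with no match (5 of 80). Over all listed ORFs of that size it was 8.45%. Of the 14, 5 had no match, and 4 could be tested. The 100-residue ORF of AABR07021544.1 had 37, 41, 39 and 28 counts, and AABR07071395.1, with 49 residues, had 20, 26, 27 and 35. Neither passed (-0.14 ± 0.30 and 0.51 ± 0.35), nor did those of Rc3h1 (-0.069 ± 0.33) and AABR07035802.1 (-0.27 ± 0.54).

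By symbol, none of the 366 ORFs matched a gene on the lists of known cases. With 183 of the 258 genes under a clone name in the authors' annotation, a listed gene under another name would be missed. Of 21 snoRNA host genes and 25 noncoding RNAs studied in heart, 0 had any listed ORF. Of 18 genes of small proteins first found on transcripts taken for noncoding, 2 had listed ORFs, Cyren and Smim26. Neither the annotated ORF of Cyren, a modulator of DNA end joining (0.62 ± 0.47), nor that of Smim26 (0.20 ± 0.10) passed, and their upstream ORFs were too low to be tested. Of 6 small proteins of the calcium pump, phospholamban (Pln) had 1301 and 1310 CPM in control and 936 and 945 in PE (-0.47 ± 0.018, edgeR's adjusted p = 1.4e-20), and sarcolipin (Sln) did not pass (-0.33 ± 0.31).

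Summed over the 366 ORFs, the level was 2224 and 2248 CPM in control and 1554 and 1582 in PE, a log2 ratio of -0.51. Without the highest ORF, AABR07001382.1, it was -0.41. The related ORFs carried the difference, with sums of 2048 and 2061 CPM in control and 1378 and 1407 in PE. ORFs with no match had 154 and 165 CPM in control and 157 and 155 in PE, which overlap. No test was made of a sum over chosen ORFs, and with 2 libraries against 2 an exact permutation test cannot go below p = 0.333.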

How the data were processed

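Footprints were counted in 2 control and 2 PE libraries. The tools named by the submitters' processing notes are STAR 2.4.2a, Bowtie 1.1.2 and cutadapt 2.0, with the genome build Rnor_6.0. Which programs called ORFs and counted footprints is not given in the sources used here. Raw counts per ORF were deposited, and, per the file headers, an annotation with the number of P-sites per frame pooled over libraries, the coverage of frame 0 in percent, ORF caller p-values and the authors' own log2 fold changes with p-values and adjusted p-values. Per-sample columns left unused numbered 0.

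Tables were joined on ORF identity. Counts were filtered (filterByExpr), scaled by TMM (factors 0.982 to 1.02), and fitted in edgeR 4.0.16 (with limma 3.58.1 in R 4.3.3), using its robust quasi-likelihood test with no replicate term and Benjamini-Hochberg over 12609 ORFs. SEs were obtained as log2 fold change over √F. The common biological coefficient of variation was 2.18%. Replicates exceeded sampling noise (chi-square per degree of freedom 1.62 and 1.60). DESeq2 1.42.0 was an alternative. The test was checked on simulated data. Likeness used blastp 2.17.0 on the encoded sequences against all listed ORFs outside the 366, with e-values up to 1e-05. Coordinates are 1-based, introns included. RefSeq promoters existed for 23 of the genes.

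The ORFs, lists and rules were chosen with earlier results of these data known. Named by rule were the 8 ORFs of highest CPM, the 8 highest and 8 lowest changes among called ORFs whose groups do not overlap and whose mean count is 20 or more, the 5 longest tested, the 4 with most frame 0 P-sites, and ORFs of the up to 4 genes with most tested ORFs. A rule on matches to reference proteins was not applied. Alternatives changed the normalization, filter, tool, tested fold, length trend, replicate term and libraries.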

Additional observations from a re-analysis of the deposited data

How the results depend on the processing

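Over all ORFs the number of calls (5386) stayed within 1.5 times under every alternative run, except a test against a 1.5-fold change, which called 1009 (459 higher, 550 lower). DESeq2 called 3592, of which 1793 were higher against 2696. Of the 39 calls among the 366 ORFs, RLE size factors kept 39, library totals alone 37, no low-count filter 37 (with 4 others called) and removal of the length trend 34. DESeq2 kept 23 (4 higher, 19 lower) and the test against a 1.5-fold change kept 12 (0 higher, 12 lower). Leaving out 1 library gave 27 to 32 calls, of which 6 to 11 were higher and 19 to 21 lower, with 25 to 30 of the 39 kept, and no call changed sign in any of these. Leaving out near-identical ORFs, an alternative chosen after seeing the data, kept 36 of 36, but it removed only 7 of the tested ORFs. It could hardly move the other calls, so it does not show whether likeness affected them. The summed log2 ratio was -0.56 with library totals alone and -0.41 without the highest ORF. Among 30 named ORFs that were tested, 8 lost their call with DESeq2 and 16 with the 1.5-fold test, and no call reversed. Taf1 and the ORFs of AABR07037943.1 are among the 30 and had no call to lose. The sign of an uncalled ORF could change: Taf1 went from -0.058 to 0.14 with the length trend removed.

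A fit with a replicate block called 5435 ORFs and kept all 39. The numbers only name the libraries: same-numbered deviations correlated at 0.012 over 9746 ORFs. Depth limits the ORFs with few reads: 266 of 366 could not be tested, and 65 had a mean count of at least 20.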
